A study of Mus musculus with 4 samples.

Results

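The proteasome genes of mouse microglia, the resident macrophages of the brain, are described here across 4 single-cell RNA-seq libraries. They were chosen by name: every gene of the deposited table whose symbol is Psm, then 1 letter from a to g, then a number, which gave 47 of 12800 genes. No measured value entered that choice. All 47 had at least 23 unique molecular identifiers (UMIs, the tags that count captured molecules) in every library. Psmb11, the thymus form of a catalytic subunit, was not analysed here, and 15 of the 47 were among the 4895 genes that the authors used to cluster the cells.

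The 4 groups were Trem2 -/- mice on cuprizone, Trem2 +/- mice on cuprizone, Trem2 +/+ mice on cuprizone and Trem2 +/+ mice on control diet, called below the knockout, heterozygote, wild-type cuprizone and wild-type control libraries. All mice were males of 12 to 14 months, and each diet was given for 12 weeks. Trem2 encodes a lipid-sensing receptor of microglia, and cuprizone, given at 0.2%, kills oligodendrocytes and so removes myelin. Each library pooled 2 hemibrains, with 30000 live CD11b+ CD45low cells sorted from each, so every group is 1 library without a replicate. The labels do not give the allele of the knockout or its control by any promoter. No test between groups was possible: every interval below is a 95% interval for counting error alone, and the spread between animals is unknown.

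The proteasome is the main protease of the cytosol and nucleus and takes apart proteins marked with ubiquitin. Its core particle is a barrel of outer rings of alpha subunits and inner rings of beta subunits, of which those encoded by Psmb5, Psmb6 and Psmb7 cut peptide bonds. A regulatory particle of ATPases and other subunits caps the barrel, binds ubiquitin chains and feeds in the unfolded protein. Interferons induce Psmb8, Psmb9 and Psmb10, whose products replace those of Psmb5, Psmb6 and Psmb7 in newly built particles. The resulting immunoproteasome is known for making peptides that fit MHC class I molecules, and immune cells of the macrophage lineage carry it also at rest.

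Levels are UMIs of a gene per 1000000 UMIs of its library (CPM) summed over 6 of the authors' 8 clusters (01, 02, 04, 05, 06 and 08), which held 753 cells of the knockout, 695 of the heterozygote, 663 of the wild-type cuprizone and 479 of the wild-type control library, and between 3638474 and 6552603 UMIs a library. All 13 microglia markers were above 0 in each of these clusters in every library. The same held in cluster 07, and in cluster 03 outside the wild-type control library, so this does not set the pool apart. Neutrophil markers also occurred in the pool. In cluster 02 they summed to 1121 CPM in the knockout, 1777 in the heterozygote, 44.7 in the wild-type cuprizone and 0.686 in the wild-type control library. In cluster 05 of the heterozygote they summed to 2806 CPM. Clusters 03, rich in neutrophil and choroid plexus markers, and 07, rich in markers of border macrophages, are given apart. Trem2 itself stood at 520.1 CPM in the knockout, 1763 in the heterozygote, 2939 in the wild-type cuprizone and 3132 in the wild-type control library, although a 3′ tag outside the deleted part checks nothing. Across libraries 8 cell barcodes occurred more than once. Counts of 3′ tags do not grow with transcript length, so CPM can be set side by side between genes, but they are not subunit stoichiometry.

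Proteasome transcripts as a whole took nearly the same part of the transcriptome in all 4 libraries. The 47 genes summed to 0.503% of UMIs (0.498 to 0.508) in the knockout, 0.495% (0.489 to 0.500) in the heterozygote, 0.511% (0.506 to 0.517) in the wild-type cuprizone and 0.499% (0.492 to 0.506) in the wild-type control library. The median cell had 0.500%, 0.496%, 0.508% and 0.499% in the same order, and no pooled cell lacked a proteasome UMI. The wild-type cuprizone share was 1.02 times that of the wild-type control library (1.01 to 1.04). The knockout share was 0.984 times (0.969 to 0.999) and the heterozygote share 0.968 times (0.953 to 0.983) that of the wild-type cuprizone library, which both comparisons share. All 3 intervals exclude 1, though each ratio lies close to it.

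No proteasome gene was called as differing by 1.5-fold between libraries. A gene is called where its CPM ratio is at least 1.5 in either direction, its interval excludes 1 and both libraries together hold at least 50 UMIs. In wild type, cuprizone over control diet, 0 of 46 proteasome genes with enough UMIs were called higher and 0 lower, where 2.59% of all 8819 genes tested were higher and 4.44% lower. The gene not tested there was Psma8, with 47 UMIs over both libraries and a ratio of 0.615 (0.332 to 1.14). In knockout over wild type on cuprizone the counts were 0 and 0 of 47, beside 1.64% and 3.86% of 9189 genes. In heterozygote over wild type on cuprizone they were 0 and 0 of 46, beside 1.32% and 1.17% of 9248 genes. For 44, 44 and 45 of the 47 genes in these 3 comparisons the whole counting interval lay within 1.5-fold. The exceptions were Psma8, Psmg1, Psmg2, Psmg4 and Psme4, whose intervals reached past 1.5-fold in 1 or more comparisons. Their UMIs over the 4 libraries ran from 107 for Psma8 to 1055 for Psmg4. By total UMIs the intervals of Psmg1 and Psmg4 in cuprizone over control diet also excluded 1.

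At a lower limit of 1.2-fold, set after the values were seen, 3 genes were called, all in cuprizone over control diet. Psmg4 was higher, and Psmg1 and Psmd7 were lower, beside 5.57% and 14.2% of all genes. None was called in knockout over wild type, where 5.71% of genes were higher and 7.94% lower, or in heterozygote over wild type, where 3.3% were higher and 3.38% lower. The median log2 ratio of the proteasome genes was -0.01, -0.03 and -0.05 in the 3 comparisons, against -0.11, -0.00 and -0.01 over all genes. Their median size of change, whatever its sign, was 0.09, 0.07 and 0.07 on the log2 scale, beside 0.21, 0.16 and 0.12 over all genes with 50 UMIs. Among genes with 1000 UMIs over both libraries these were 0.10, 0.07 and 0.06, beside 0.16, 0.09 and 0.06, so part of the gap went with how deeply a gene was counted. The median of all genes in cuprizone over control diet was -0.11 when libraries were scaled by total UMIs and 0.01 with TMM factors, while the proteasome genes stayed 0.11 above it under both. The 1.2-fold calls were made by total UMIs. The TMM factors, 0.981 for the wild-type cuprizone and 1.06 for the wild-type control library, raise every diet ratio. With them the diet ratios of Psmg1 and Psmd7 lie nearer 1, and their intervals hold 1. The diet ratio of Psmg4 and of every other gene above 1 lies further from 1. Calls at 1.2-fold were not counted with TMM factors, so more genes could be called higher there.

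**Figure D1:**
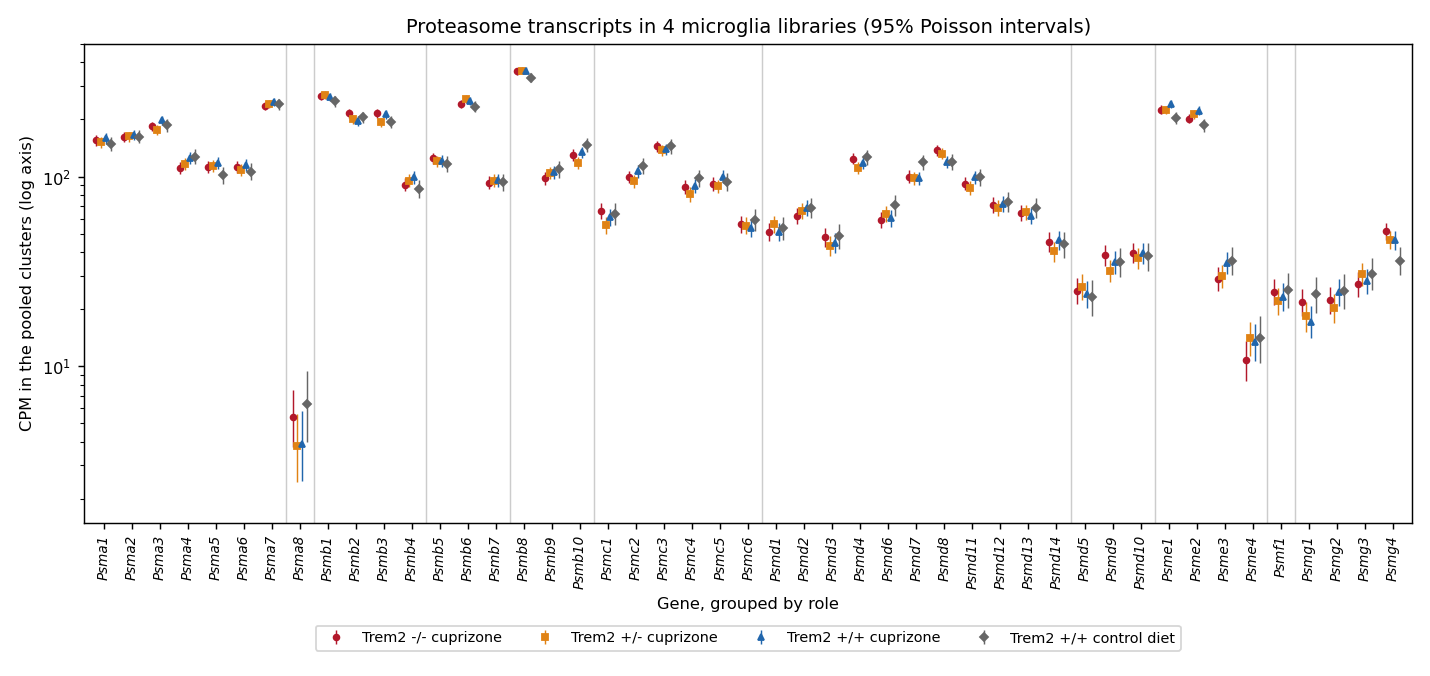
Level of each proteasome gene in each library, in CPM on a log axis, grouped by role from the alpha ring at the left to the core assembly chaperones at the right. Points are libraries and bars are 95% Poisson intervals; Psmb8 is the highest at 333 to 362 CPM and Psma8 the lowest at 3.82 to 6.32 CPM, and the 4 points of a gene lie close together.

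The 7 common alpha subunits, which form the outer rings and their gate, had mean levels between 111 and 241 CPM. Psma7 was the most abundant, at 235 CPM in the knockout, 242 in the heterozygote, 247 in the wild-type cuprizone and 241 in the wild-type control library. Psma6 was the least, at 113, 109, 115 and 106 CPM in the same order. Both varied little among libraries. Summed over the ring, the wild-type cuprizone library stood 1.05 times above the wild-type control library (1.01 to 1.09), and the knockout at 0.951 times (0.920 to 0.983) and the heterozygote at 0.949 times (0.918 to 0.981) the wild-type cuprizone level. Psma8, an alpha subunit of the testis, had 35, 25, 24 and 23 UMIs in the knockout, heterozygote, wild-type cuprizone and wild-type control libraries, or 5.37, 3.82, 3.89 and 6.32 CPM, and its intervals overlapped in all 4.

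Among the beta subunits without a cutting site, Psmb1 was the most abundant, at 267, 269, 263 and 249.8 CPM in the knockout, heterozygote, wild-type cuprizone and wild-type control libraries. Psmb4 was the least abundant, at 90.7, 95.1, 99.4 and 86.0 CPM. The 4 genes summed to 789 CPM in the knockout, 758 in the heterozygote, 772 in the wild-type cuprizone and 735 in the wild-type control library. The highest library was thus the knockout for this group and wild-type cuprizone for the alpha ring, with gaps of a few percent in both.

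Among the catalytic subunits, the transcripts of the inducible set outnumbered those of the constitutive set in every library. Psmb8 was the most abundant of all 47 genes. It stood at 359 CPM (345 to 374) in the knockout, 362 (347 to 377) in the heterozygote, 362 (347 to 378) in the wild-type cuprizone and 333 (314 to 352) in the wild-type control library. The 3 cuprizone libraries were alike, and the wild-type cuprizone level was 1.09 times the wild-type control level (1.01 to 1.17). Psmb8 encodes the inducible counterpart of Psmb5, which stood at 125, 120.1, 121 and 117 CPM in the same order with overlapping intervals. The antisense gene Gm20496, annotated over the 3′ end of Psmb8, was not analysed here, and the sources used here do not say whether the counting used strand.

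Psmb9, the inducible counterpart of Psmb6, stood at 97.8 CPM (90.3 to 106) in the knockout, 105 (97.0 to 113) in the heterozygote, 105 (97.3 to 114) in the wild-type cuprizone and 109 (98.6 to 120.4) in the wild-type control library. Psmb6 itself was more than 2 times as abundant, at 242, 257, 251 and 234 CPM. For both genes the intervals of all 4 libraries overlapped. Psmb10, the inducible counterpart of Psmb7, was lowest in the heterozygote. It stood at 130.02 CPM (121 to 139) in the knockout, 118 (110.1 to 127) in the heterozygote, 134 (125 to 144) in the wild-type cuprizone and 148 (135 to 161) in the wild-type control library. The heterozygote level was 0.882 times the wild-type cuprizone level (0.799 to 0.974), and the wild-type cuprizone level 0.908 times the wild-type control level (0.814 to 1.01). Psmb7 stood at 92.9, 95.1, 95.5 and 93.2 CPM in the order above.

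Taken as shares of the 6 catalytic genes, the inducible 3 made up 56.1% of UMIs in the knockout (54.9 to 57.2), 55.3% in the heterozygote (54.1 to 56.5), 56.2% in the wild-type cuprizone (55.0 to 57.4) and 57.0% in the wild-type control library (55.4 to 58.6). All 4 intervals overlapped. The odds of an inducible UMI were 0.968 times those of control diet on cuprizone in wild type (0.892 to 1.05), 0.993 times those of wild type in the knockout (0.927 to 1.06) and 0.963 times those of wild type in the heterozygote (0.899 to 1.03). This measure does not depend on how libraries are scaled. The 3 pairs differed from each other far more than the libraries did: Psmb8 was 74.0% to 75.1% of its pair with Psmb5, Psmb9 28.8% to 31.8% of its pair with Psmb6, and Psmb10 55.4% to 61.3% of its pair with Psmb7.

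Psmb9 and Psmb8 lie in the MHC region of chromosome 17, beside the peptide transporter genes Tap1 and Tap2. In build GRCm38 the order is Psmb9 (34181987 to 34187764, minus strand), Tap1 (34187553 to 34197225, plus strand), Psmb8 (34197721 to 34201454, plus strand) and Tap2 (34203527 to 34216321, plus strand), and the first 2 overlap head to head at their 5′ ends. Psmb10 lies on chromosome 8, Psmb5 on chromosome 14, Psmb6 on chromosome 11 and Psmb7 on chromosome 2. The 250 bases before the RefSeq start (GRCm38.p6) are shown for the 5 catalytic genes in the RefSeq promoter table, since the inducible and constitutive genes fill the same places in the particle but answer to different upstream signals. Capitals mark the motif matches named below, and sequences read 5′ to 3′ on the strand of the gene.
Psmb8, chr17:34197945-34198194, plus strand: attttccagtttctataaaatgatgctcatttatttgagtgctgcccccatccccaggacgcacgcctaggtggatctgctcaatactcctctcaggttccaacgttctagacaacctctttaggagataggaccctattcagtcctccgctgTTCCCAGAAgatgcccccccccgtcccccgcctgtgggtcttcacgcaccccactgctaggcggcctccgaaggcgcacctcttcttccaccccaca
Psmb9, chr17:34187331-34187580, minus strand: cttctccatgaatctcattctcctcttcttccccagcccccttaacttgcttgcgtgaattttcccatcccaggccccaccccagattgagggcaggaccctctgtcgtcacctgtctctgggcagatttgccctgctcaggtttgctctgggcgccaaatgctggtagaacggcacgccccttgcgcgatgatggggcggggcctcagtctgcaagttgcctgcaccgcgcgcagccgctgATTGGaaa
Psmb10, chr8:105938393-105938642, minus strand: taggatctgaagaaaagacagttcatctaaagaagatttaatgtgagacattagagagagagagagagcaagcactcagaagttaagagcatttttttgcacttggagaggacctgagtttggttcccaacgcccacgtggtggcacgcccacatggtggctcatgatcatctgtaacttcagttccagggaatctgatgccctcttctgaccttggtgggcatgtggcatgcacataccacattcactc
Psmb5, chr14:54617996-54618245, minus strand: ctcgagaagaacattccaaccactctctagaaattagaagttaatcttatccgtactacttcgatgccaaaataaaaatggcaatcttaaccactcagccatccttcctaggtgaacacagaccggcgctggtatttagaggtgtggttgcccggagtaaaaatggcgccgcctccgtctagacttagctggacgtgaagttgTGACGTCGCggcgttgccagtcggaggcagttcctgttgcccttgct
Psmb6, chr11:70525107-70525356, plus strand: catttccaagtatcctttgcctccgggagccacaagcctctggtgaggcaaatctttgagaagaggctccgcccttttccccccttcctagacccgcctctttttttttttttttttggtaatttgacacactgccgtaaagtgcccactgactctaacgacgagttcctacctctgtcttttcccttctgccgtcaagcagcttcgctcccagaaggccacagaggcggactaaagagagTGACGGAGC

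Of the 47 genes 39 matched the table, with 42 windows. Searched on both strands were the interferon-stimulated response element as GAAANNGAAA, found in 2.98% of all 32851 windows of these 250 bases, the gamma-activated site as TTCNNNGAA (7.02%), the core of the antioxidant response element as TGACNNNGC (10.2%) and the CCAAT box (33.8%). Psmb8 held a gamma-activated site at bases -97 to -89 from the start. Psmb5 held an antioxidant response core at -47 to -39 and Psmb6 one at -9 to -1, Psmb9 a CCAAT box on the other strand at -8 to -4, and Psmb10 none of the 4. Interferon-stimulated response elements lay in the windows of Psmb3, Psmd4 and Psmd9. A gamma-activated site lay also in that of Psmg1, and antioxidant response cores in those of Psmc6, Psmd12 and Psmd9. Of the 42 windows, 3 held the interferon-stimulated element, 2 the gamma-activated site, 5 the antioxidant core and 13 the CCAAT box. The windows of Psmb8 and Psmb9 fall inside the longer gene models given above, and a match describes letters, not binding.

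The ATPases of the base, which unfold the substrate, ranged from Psmc3 to Psmc6. Psmc3 stood at 144 CPM in the knockout, 138 in the heterozygote, 139.7 in the wild-type cuprizone and 144 in the wild-type control library, and Psmc6 at 56.2, 55.1, 53.4 and 59.1 CPM. The 6 ATPase genes together were at 545, 513, 549.9 and 572 CPM, and the heterozygote sum was 0.932 times the wild-type cuprizone sum (0.889 to 0.978). In cuprizone over control diet the sum was 0.961 times (0.910 to 1.02), and the median ratio of the group changed sign under TMM scaling, at -0.08 on the log2 scale by total UMIs and 0.04 by TMM.

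The 11 other regulatory subunits, which bind ubiquitin chains, cut them off and hold the lid together, had mean levels between 43.9 and 127 CPM. Psmd8, of the lid, stood at 138 CPM in the knockout, 132 in the heterozygote, 119 in the wild-type cuprizone and 119.6 in the wild-type control library. The knockout level was 1.16 times (1.05 to 1.27) and the heterozygote level 1.11 times (1.003 to 1.22) the wild-type cuprizone level, so both libraries with fewer Trem2 copies were above both wild-type libraries. Psmd14, the enzyme that removes ubiquitin chains, was the least abundant of the group, at 45.3, 40.3, 46.2 and 44.0 CPM. Psmd7, its partner without enzyme activity, stood at 99.8 CPM in the knockout, 98.0 in the heterozygote, 98.1 in the wild-type cuprizone and 119 in the wild-type control library. The wild-type cuprizone level of Psmd7 was 0.826 times the wild-type control level by total UMIs (0.729 to 0.937), an interval that holds 1 with TMM factors. All 3 cuprizone libraries were below the control-diet library. The group sum was 0.941 times as high in cuprizone as in control diet (0.901 to 0.984), but its median ratio changed sign with the scaling, from -0.06 by total UMIs to 0.06 by TMM on the log2 scale.

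Transcripts of the core particle (17 genes without Psma8) outnumbered those of the regulatory particle (17 genes). The core made up 67.5% of their summed UMIs in the knockout (67.0 to 68.1), 68.2% in the heterozygote (67.7 to 68.8), 68.1% in the wild-type cuprizone (67.6 to 68.7) and 66.0% in the wild-type control library (65.3 to 66.8). The wild-type control interval lay below those of the 3 cuprizone libraries. The share followed the clusters too, at 61.1% to 64.4% in cluster 01 and 68.3% to 70.3% in cluster 02, which held 213 of 753 pooled cells in the knockout, 144 of 695 in the heterozygote, 146 of 663 in the wild-type cuprizone and 77 of 479 in the wild-type control library. The part of cluster makeup in the library gap was not tested.

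The activators gave the clearest diet difference of any role. Psme1 and Psme2 encode the subunits of an interferon-induced ring that opens the core without ubiquitin. Psme1 stood at 226 CPM (214 to 237) in the knockout, 224 (213 to 236) in the heterozygote, 242 (230 to 255) in the wild-type cuprizone and 205 (190.3 to 220) in the wild-type control library. Psme2 stood at 201 CPM (191 to 212), 213 (202 to 225), 223 (211 to 235) and 186 (173 to 201) in the same order. Both genes were highest in the wild-type cuprizone and lowest in the wild-type control library. Their wild-type cuprizone levels were 1.18 (1.08 to 1.29) and 1.197 times (1.09 to 1.31) the wild-type control levels. Psme2 was 0.903 times as high in the knockout as in wild type on cuprizone (0.836 to 0.974), and Psme1 0.932 times (0.866 to 1.002). In the heterozygote Psme2 stood at 0.957 times (0.888 to 1.03) and Psme1 at 0.927 times (0.862 to 0.997) the wild-type cuprizone level. Psme2b, a copy of Psme2 outside the symbol rule, had 885 UMIs, and reads of the pair could be split between them.

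Psme3, a nuclear activator, stood at 28.9, 29.8, 35.1 and 36.0 CPM in the knockout, heterozygote, wild-type cuprizone and wild-type control libraries, and Psme4, which acts on acetylated histones, at 10.7, 14.0, 13.4 and 14.0 CPM. The 4 activators summed to 466, 481, 514 and 441 CPM. Cuprizone over control diet in wild type was 1.16 times (1.10 to 1.24), and the knockout 0.908 times (0.864 to 0.955) and the heterozygote 0.937 times (0.892 to 0.985) wild type on cuprizone. The activator sum was thus ordered wild-type cuprizone, heterozygote, knockout and wild-type control.

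The remaining roles were thinly expressed. Psmf1, whose protein inhibits the core in vitro, stood at 24.7, 22.0, 23.3 and 25.3 CPM in the knockout, heterozygote, wild-type cuprizone and wild-type control libraries. Of the chaperones that build the base, Psmd10 had 39.8, 37.2, 39.3 and 37.9 CPM and Psmd5 25.02, 26.2, 23.97 and 23.1 CPM. The intervals of the summed ratios of both groups held 1 in all 3 comparisons.

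Scaled by total UMIs, the chaperones that build the core held the 2 largest diet ratios among genes with at least 50 UMIs. Psmg4 stood at 51.4 CPM (46.1 to 57.2) in the knockout, 46.4 (41.3 to 51.9) in the heterozygote, 46.2 (40.9 to 51.8) in the wild-type cuprizone and 36.0 (30.1 to 42.7) in the wild-type control library, a wild-type cuprizone level 1.28 times the wild-type control level (1.04 to 1.59). Psmg1 stood at 21.8 CPM (18.4 to 25.7), 18.3 (15.2 to 21.9), 17.2 (14.1 to 20.8) and 23.9 (19.2 to 29.5) in the same order. Its wild-type cuprizone level was 0.718 times the wild-type control level (0.536 to 0.964), an interval that holds 1 with TMM factors. The products of Psmg4 and Psmg1 act in different chaperone pairs, and the sum of all 4 core chaperones was 116 CPM in both wild-type libraries. Over all 44 genes with at least 500 UMIs, the highest library stood between 1.02 and 1.43 times above the lowest, with a median of 1.13.

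**Figure D2:**
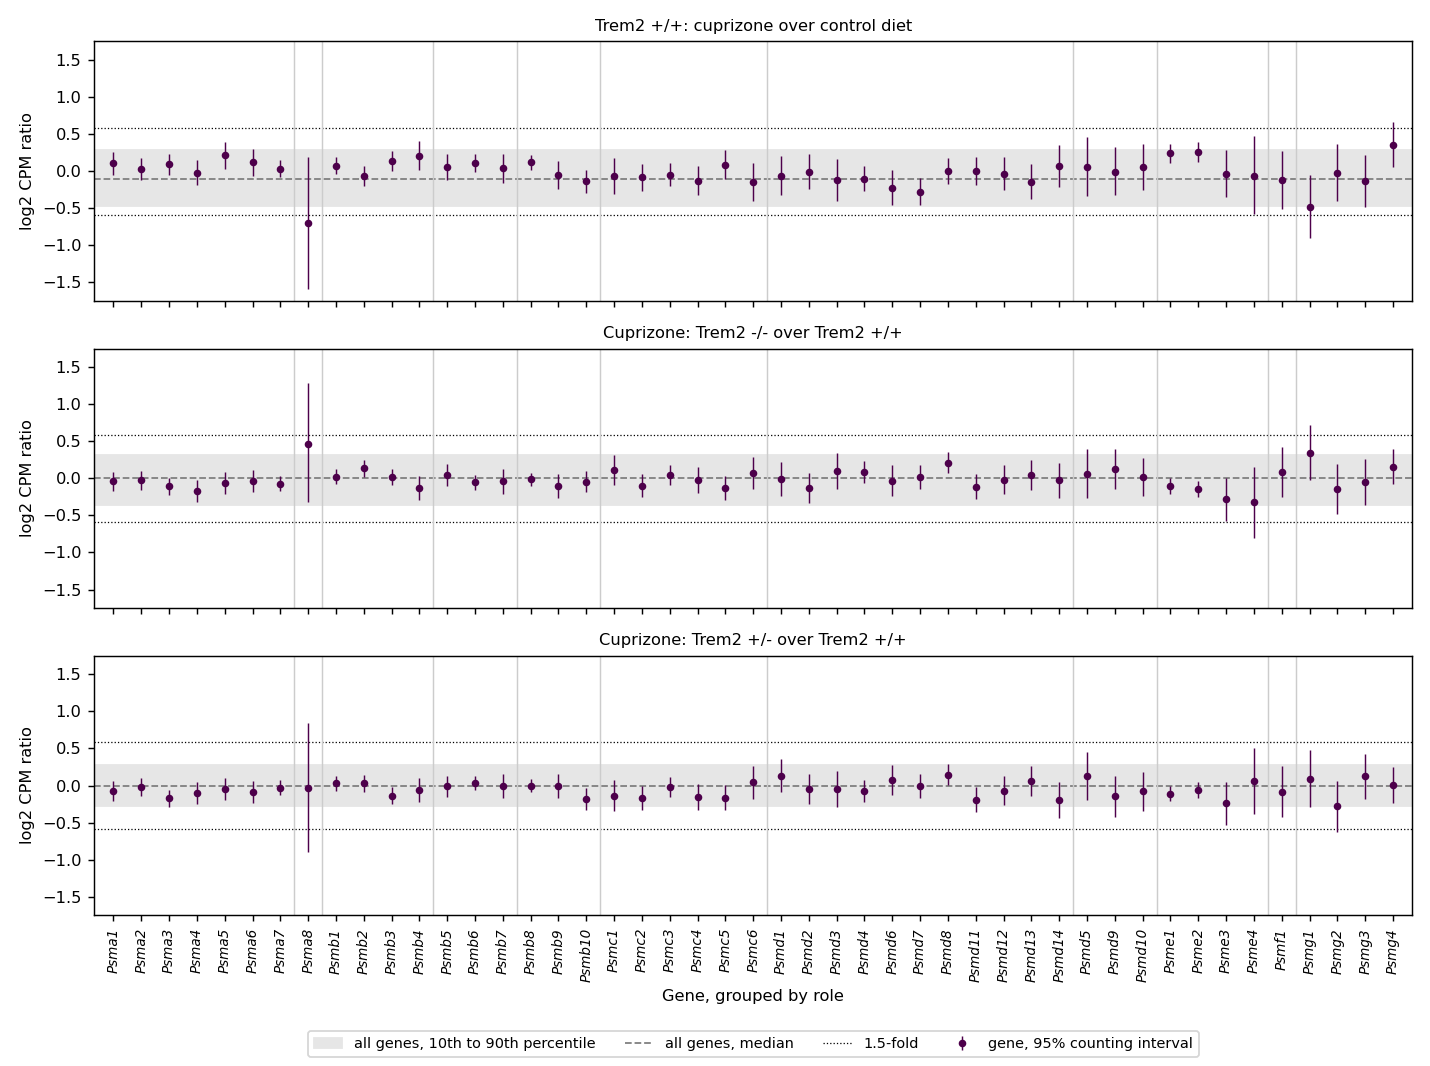
Log2 CPM ratio of each proteasome gene in the 3 comparisons, with 95% counting intervals, beside the median (dashed) and the range from the 10th to the 90th percentile (grey) of all genes with at least 50 UMIs. No gene with an interval clear of 0 lies beyond the dotted 1.5-fold lines, and the widest intervals belong to Psma8.

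The authors' clusters differed more in summed proteasome share than the libraries did. Cluster 02, whose cells were the deepest with a median of 14872 to 18462 UMIs, was the lowest of the 8 clusters in 4 of 4 libraries, at 0.481% in the knockout, 0.463% in the heterozygote, 0.471% in the wild-type cuprizone and 0.471% in the wild-type control library. Cluster 06, of shallow cells with a median of 3385 to 3730 UMIs, held 0.588% (0.566 to 0.610), 0.580% (0.557 to 0.604), 0.605% (0.583 to 0.627) and 0.522% (0.502 to 0.542) in the same order. Cluster 01, of similar depth, held only 0.478% to 0.519%. Since 15 of the 47 genes helped to define the clusters, these are descriptions without a test.

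Within cluster 06, where all libraries had at least 104 cells, the wild-type cuprizone share was 1.16 times the wild-type control share (1.10 to 1.22). It was 1.17 times as the mean of per-cell shares and 1.16 times without the cell with the most proteasome UMIs. The inducible catalytic genes of this cluster were 1.21 times as high in wild-type cuprizone as in wild-type control cells (1.03 to 1.43), and the constitutive ones 0.988 times (0.826 to 1.18). The knockout and heterozygote shares were 0.972 (0.923 to 1.02) and 0.959 times (0.908 to 1.01) the wild-type cuprizone share. Cluster 06 had the highest diet ratio of the 6 pooled clusters. The others were at 1.06 (cluster 01), 0.999 (02), 1.04 (04), 1.01 (05) and 0.910 times (08), each with an interval that held 1.

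**Figure D3:**
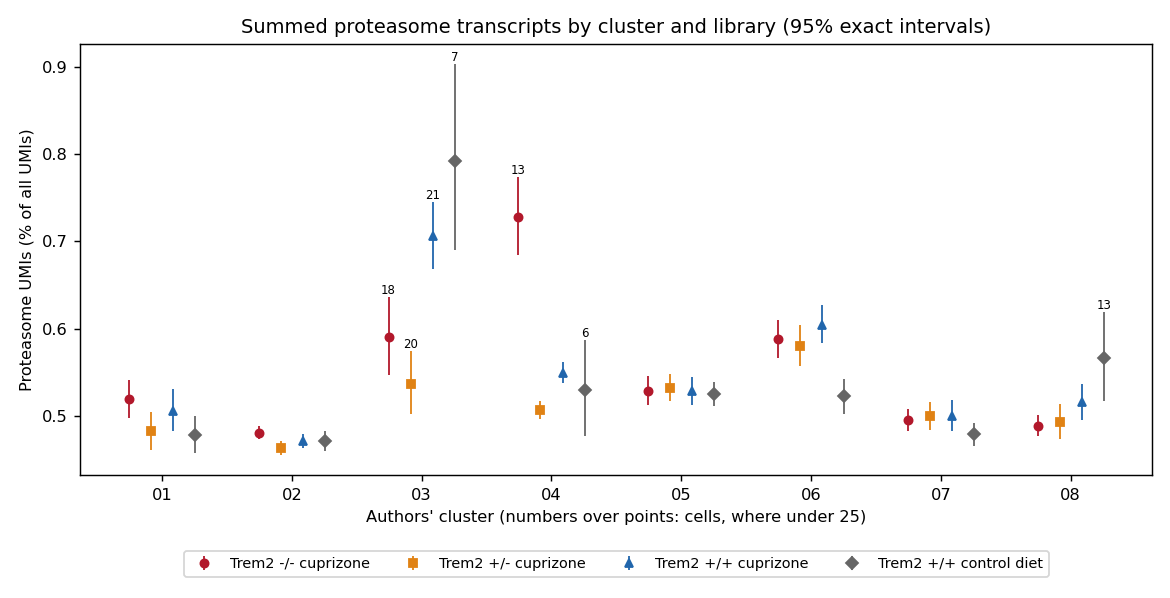
Summed share of UMIs from the 47 proteasome genes by the authors' cluster and library, in percent, with 95% exact binomial intervals and the number of cells over points with under 25. Cluster 02 is lowest in each library, and the 13 knockout cells of cluster 04 stand at 0.728%, above the 0.549% of wild-type cuprizone cells.

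Cluster 04 held 13 knockout, 150 heterozygote, 122 wild-type cuprizone and 6 wild-type control cells. The 13 knockout cells had a proteasome share of 0.728% (0.685 to 0.774), against 0.549% (0.537 to 0.562) in the wild-type cuprizone cells, a ratio of 1.33 (1.24 to 1.41). The heterozygote cells had 0.507% (0.496 to 0.517), 0.922 times the wild-type cuprizone share (0.895 to 0.951). The alpha ring (1668 against 1220 CPM), the ATPases (855 against 586 CPM) and the constitutive catalytic genes (848 against 573 CPM) were all higher in knockout than in wild-type cuprizone cells, the last by 1.48 times (1.21 to 1.79). The inducible genes were at 757 against 624 CPM (1.21 times, 0.984 to 1.48) and the activators at 554 against 578 CPM.

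Other values moved with the knockout cells of cluster 04. The 1 cell with the most proteasome UMIs gave 15.2% of them, and leaving out the top cell in both libraries gave a ratio of 1.26. The 13 microglia markers summed to 14312 CPM in knockout against 20016 CPM in wild-type cuprizone cells, with all 13 above 0 in both. Monocyte markers summed to 463 CPM (66 UMIs) against 55.4 CPM, with 4 of 6 above 0 in each, and border macrophage markers to 694 against 373 CPM. Neutrophil markers summed to 105 CPM in knockout, 2367 in heterozygote and 49.0 CPM in wild-type cuprizone cells of the cluster. The part of these cells' makeup in the ratio was not tested.

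The balance of catalytic genes was steady across most clusters. In clusters 01, 02, 05, 06 and 08 the inducible share lay between 48.5% and 60.4% in every library, and the lowest of these came from 13 cells. Cluster 04 was at 47.2% (40.6 to 53.8) in the knockout, 52.5% (50.3 to 54.7) in the heterozygote and 52.1% (49.7 to 54.5) in the wild-type cuprizone library, below the 57.2%, 57.0% and 58.4% of cluster 02. Cluster 02 was the highest of the 6 pooled clusters in 3 of 4 libraries. In each cuprizone library the interval of cluster 04 overlapped those of clusters 01, 05 and 06. In the wild-type control library cluster 04, with 6 cells, was at 57.6% (44.8 to 69.7), close to the 58.7% of cluster 02. In cluster 04 Psmb8 stood above its own library's pool in 4 of 4 libraries, at 505 CPM in the knockout, 404 in the heterozygote, 399 in the wild-type cuprizone and 337 (214 to 506) in the wild-type control library, and so did Psmb6 and Psmb7. In the wild-type control library the intervals of Psmb8, Psmb6 and Psmb7 held the pool level. That of Psmb7 did so in the heterozygote and wild-type cuprizone libraries too. Psmb9 stood below its pool in 4 of 4, at 84.1 (43.5 to 147), 98.2 (84.2 to 114), 97.4 (81.8 to 115) and 58.7 CPM (15.98 to 150.2), but each interval held the pool level and the last rests on 4 UMIs. Psmb5 was above its pool in 3 of 4 libraries, at 196, 131, 146 and 29.3 CPM, the last from 2 UMIs.

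Both clusters left out of the pool lay at the ends of the range. Cluster 07, where markers of border macrophages summed to 2415 to 3655 CPM, had the highest inducible share of the 8 clusters in 4 of 4 libraries, at 58.8% in the knockout (56.1 to 61.4), 62.1% in the heterozygote (58.7 to 65.4), 61.2% in the wild-type cuprizone (57.5 to 64.8) and 59.2% in the wild-type control library (56.3 to 62.0), although these intervals overlapped those of cluster 02 in each library. Cluster 03 had the lowest in 4 of 4, at 32.8% (24.7 to 41.8), 42.1% (33.9 to 50.8), 19.5% (14.0 to 25.9) and 25.5% (13.9 to 40.3) in the same order, from 7 to 21 cells. In that cluster neutrophil markers summed to 124772, 155390, 60540 and 0 CPM and choroid plexus markers to 45148, 27947, 119648 and 91272 CPM in the knockout, heterozygote, wild-type cuprizone and wild-type control libraries.

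**Figure D4:**
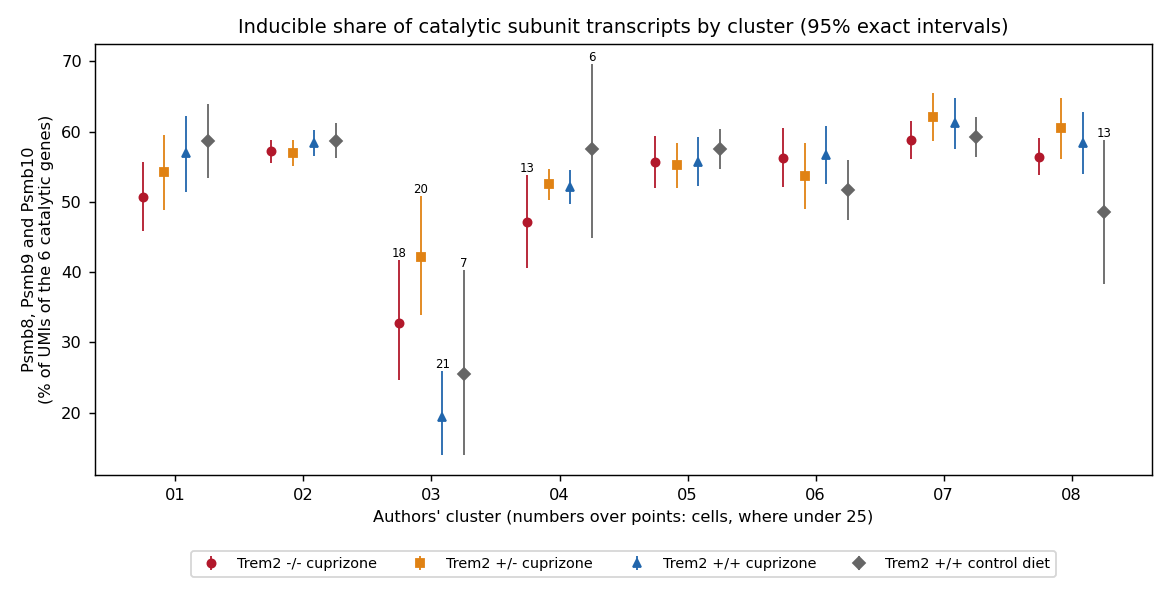
Psmb8, Psmb9 and Psmb10 as a percent of the UMIs of these and Psmb5, Psmb6 and Psmb7, by the authors' cluster and library, with 95% exact binomial intervals. Most points lie near 55%; cluster 03 is far below, at 19.5% to 42.1%, and cluster 07 above, at 58.8% to 62.1%.

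Interferon response genes served as the yardstick for the inducible subunits, from a list of 24 that holds no proteasome gene. In cuprizone over control diet 15 of 24 were at least 1.5-fold higher and 0 lower, beside the 2.59% and 4.44% of all genes given above, with a median log2 ratio of 0.93. They included Ifit1, Ifit2, Ifit3, Isg15, Ifi27l2a, Ifitm3, Oasl2, Oas1a, Irf7, Rsad2, Usp18, Ifi204, Ifih1 and Gbp2. Isg15, a ubiquitin-like protein induced by interferon, stood at 91.0 CPM in the wild-type cuprizone and 27.5 in the wild-type control library, 3.31 times as high. The 2 most abundant of the list were Bst2, a protein that tethers budding viruses, at 286, 271, 317 and 229 CPM in the knockout, heterozygote, wild-type cuprizone and wild-type control libraries, and Ifi27l2a at 185, 242, 294 and 146 CPM. Over the same libraries Psmb8, Psmb9 and Psmb10 had ratios of 1.09, 0.965 and 0.908, of which that of Psmb9 moved above 1 under TMM scaling. In knockout over wild type 8 of 24 interferon genes were lower (Isg15, Ifi27l2a, Ifitm3, Oasl2, Usp18, Ifi204, Ifih1 and Gbp2) and 0 higher, beside 3.86% and 1.64% of all genes. In heterozygote over wild type 4 were lower (Isg15, Rsad2, Mx1 and Gbp2) and 0 higher, beside 1.17% and 1.32% of all genes. The inducible subunits had ratios of 0.991, 0.929 and 0.970 in the knockout and 0.998, 0.995 and 0.882 in the heterozygote.

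Within libraries, the cells richest in interferon response transcripts had higher levels of some proteasome genes, with intervals clear of 1 in only some libraries. For the constitutive catalytic genes the intervals of the ratios held 1 in each library. Pooled cells were thinned to 2915 UMIs, which left out shallower cells, and the top 5% of each library by UMIs of the 24 genes were set beside the rest: 34 of 673 knockout, 34 of 644 heterozygote, 31 of 604 wild-type cuprizone and 22 of 410 wild-type control cells. Psmb9 was 1.16 times (0.569 to 2.13), 2.20 times (1.37 to 3.37), 2.01 times (1.199 to 3.19) and 1.94 times (0.973 to 3.53) as high in these cells as in the rest, in the order knockout, heterozygote, wild-type cuprizone and wild-type control. Psmb8 was 1.93 times (1.48 to 2.48), 1.80 times (1.35 to 2.35), 1.35 times (0.959 to 1.86) and 1.14 times (0.715 to 1.74) as high. Both were above 1 in 4 of 4 libraries, each with an interval clear of 1 in 2 of them. Without cluster 08 the knockout ratio was 0.998 (0.447 to 1.95) for Psmb9 and 1.58 (1.16 to 2.12) for Psmb8, so Psmb9 was then above 1 in 3 of 4 libraries. Cells are not replicates, so this is a description of these libraries.

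Psme1 and Psme2 followed the same direction, at 1.48, 1.96, 1.77 and 1.60 times for Psme1 and 1.15, 1.65, 1.92 and 1.68 times for Psme2 in the order above. The interval of Psme1 held 1 in the knockout and wild-type control libraries, and that of Psme2 in the knockout. The constitutive Psmb6, at 1.39, 1.06, 1.21 and 1.16 times, and Psmb7, at 1.48, 1.43, 1.34 and 1.41 times, were also above 1 in 4 of 4 libraries. Psmb10 was at 1.18, 1.21, 1.48 and 0.904 times and Psmb5 at 0.861, 1.31, 0.770 and 0.772 times. The intervals of Psmb5, Psmb6, Psmb7 and Psmb10 held 1 in each library. The inducible share of the 6 catalytic genes was 61.9% in interferon-high against 55.9% in other cells of the knockout, 63.8% against 54.9% in the heterozygote, 62.0% against 54.8% in the wild-type cuprizone and 57.3% against 54.8% in the wild-type control library. It was higher in interferon-high cells in 4 of 4 libraries, but the intervals overlapped in 4 of 4. The 42 proteasome genes other than Psmb8, Psmb9, Psmb10, Psme1 and Psme2 together stood at 1.08 (0.981 to 1.19), 1.15 (1.04 to 1.26), 1.02 (0.921 to 1.13) and 1.001 times (0.880 to 1.13).

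The interferon-high cells came from different clusters in each library: cluster 08 gave 17 of the 34 in the knockout, and cluster 05 gave 11 of the 22 in the wild-type control library. Before thinning their median depth was 6899 against 7035 UMIs in the knockout, 7423 against 7705 in the heterozygote, 7214 against 7070 in the wild-type cuprizone and 8486 against 5446 in the wild-type control library. The part of cluster and depth in these ratios was not tested. For scale, Tap1, the peptide transporter gene beside Psmb9, which is not on the list, was 2.31, 3.18, 3.08 and 1.41 times as high in the interferon-high cells in the order knockout, heterozygote, wild-type cuprizone and wild-type control. The knockout ratio rests on 7 UMIs in these cells (0.888 to 5.07) and the wild-type control ratio on 2 UMIs (0.162 to 5.66), and both intervals hold 1. The peptide loading genes Tap2, at 0.545, 0.488, 1.47 and 0.551 times, and Tapbp, at 0.841, 0.798, 1.35 and 0.729 times, were below 1 in 3 of 4 libraries with intervals that held 1. The MHC class I genes B2m, at 1.497, 1.36, 1.33 and 1.27 times, and H2-D1, at 1.67, 1.58, 1.45 and 1.33 times, had intervals clear of 1 in each library. Without cluster 08 the wild-type control interval of H2-D1 held 1 (0.973 to 1.398). H2-K1 was at 1.51, 0.935, 1.35 and 1.16 times, and its interval held 1 in the heterozygote and wild-type control libraries.

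**Figure D5:**
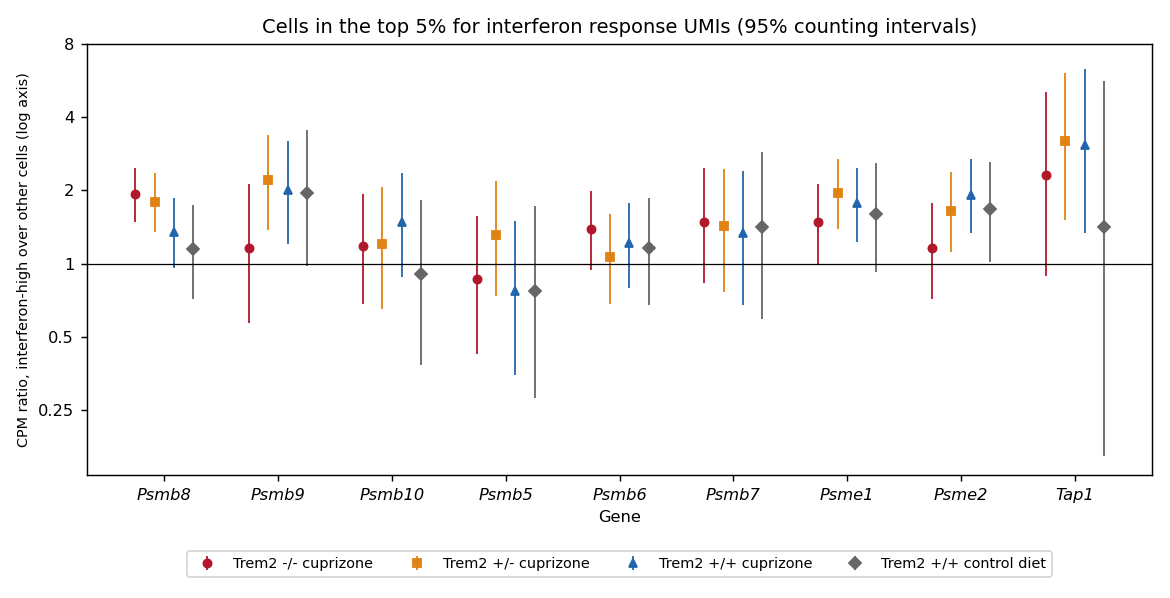
CPM in the cells in the top 5% of their library for interferon response UMIs over CPM in the other cells, after thinning, for the 6 catalytic genes, Psme1, Psme2 and Tap1, with 95% counting intervals on a log axis. Psmb8, Psmb9, Psme1 and Psme2 lie above 1 in all 4 libraries, as do Psmb6, Psmb7 and Tap1. The intervals of Psmb10, Psmb5, Psmb6 and Psmb7 hold 1 in each library. Those of Psmb9, Psme1 and Tap1 hold 1 in the knockout and wild-type control libraries. That of Psmb8 holds 1 in the wild-type cuprizone and wild-type control libraries, and that of Psme2 in the knockout.

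Of 12 partners of the proteasome outside the symbol rule, 0 passed 1.5-fold in either direction in any of the 3 comparisons, beside shares of all genes between 1.17% and 4.44%. Their median log2 ratio was 0.01 in cuprizone over control diet, -0.13 in knockout over wild type and -0.08 in heterozygote over wild type. Pomp, the maturation factor of the core, stood at 421, 387, 413 and 388 CPM in the knockout, heterozygote, wild-type cuprizone and wild-type control libraries. Sem1, a small lid subunit, stood at 304, 323, 334 and 267 CPM, and its wild-type cuprizone level was 1.25 times the wild-type control level (1.16 to 1.35). Ecm29 and Paaf1 were not analysed here under these symbols. None of 5 ubiquitin genes passed 1.5-fold either: Ubb stood at 2993, 2809, 2755 and 3093 CPM in the order above and was highest in the wild-type control library.

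The 4 regulators of proteasome genes also counted 0 past 1.5-fold. Nfe2l2, the factor of the antioxidant response, stood at 185, 201, 203 and 227 CPM, and Nfe2l1, which raises proteasome genes when the protease is blocked, at 25.9, 26.4, 28.8 and 31.9 CPM in the knockout, heterozygote, wild-type cuprizone and wild-type control libraries. Of 13 peptide loading and MHC class I genes with 50 UMIs, 0 passed 1.5-fold. B2m, the light chain of MHC class I, stood at 4938, 5082, 5391 and 4402 CPM and H2-D1, a heavy chain, at 1544, 1754, 1798 and 1438 CPM. Both were highest in the wild-type cuprizone and lowest in the wild-type control library, as were Psme1 and Psme2.

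Over the 24 sums of library and pooled cluster, the genes whose log2(CPM + 10) followed that of Psmb8, Psmb9 and Psmb10 together most closely among 7521 genes with at least 200 UMIs were Mrpl42 (Pearson r 0.79), Cox6b1 (0.78), Tspo, Ndufa4, AW112010, Blvrb, Rpl10, Rps7, Cox6a1 and Ifit1 (0.72). The 24 points share libraries, depth and cluster definitions, so these values only describe likeness. The closest other proteasome gene was Psma7 (0.70), at rank 18.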

How the data were processed

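Single-cell UMI counts of 4 microglia libraries were analysed. The deposited table holds raw counts, whole UMIs of each gene in each cell. Cell Ranger 2.1.1 and build mm10 are named in the submitters' processing notes. The authors had dropped low-quality cells and joined the libraries before deposit, per the readme beside the table. No doublet step is named there and none was run here. Clusters are the authors'. The sources used here give neither the gene annotation nor the strand setting.

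UMIs were summed over the cells of 6 clusters in each library (median 4717 to 6849 UMIs a cell) and divided by the library's total. A CPM has an exact Poisson interval, a share an exact binomial (Clopper-Pearson) interval and a ratio an exact conditional binomial interval, all at 95% and for counting error only. The interval code was tested on simulated data. With 1 library a group no p-value was made. Values in every library are given for the 6 catalytic genes, Psme1 and Psme2, the most and least abundant gene of each role, and any gene past 1.5-fold. Of each related list the 2 most abundant genes and those past 1.5-fold are named, except for some that are not reported here. Psmd7, Psme3, Tap1, Tap2, Tapbp and H2-K1 were chosen after their values were seen, as were the interferon-high ratios of B2m and H2-D1. The genes, lists and limits were chosen with earlier results of these data known. Gene positions are from GENCODE vM21 (GRCm38) and promoters from RefSeq (GRCm38.p6). Python 3.11.15, numpy 2.4.6, scipy 1.17.1, pandas 2.3.3 and matplotlib 3.10.9 were used, with edgeR 4.0.16 in R 4.3.3 for TMM factors only. Alternatives were other pools and weights of cells and clusters, TMM and median-of-ratios scaling, other UMI limits, removal of top cells and removal of each catalytic pair.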

Additional observations from a re-analysis of the deposited data

How the results depend on the processing

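With 1 library a group no replicate could be left out. No paired analysis was possible because each group holds 1 library and no result comes from a test. The count of 0 genes past 1.5-fold held in all 3 comparisons and both directions under each alternative run, with 2 exceptions in wild-type cuprizone over control diet: with clusters weighted equally 1 gene, Psmd5, was higher, at 1.60 times, where the control library has only 6 cells in cluster 04, and at the added 1.2-fold limit 1 gene was higher and 2 were lower. The summed share in cuprizone over control diet (1.02) was 1.05 without cluster 02, 1.11 under TMM, 1.11 under median-of-ratios scaling and 1.06 without mitochondrially encoded and ribosomal protein transcripts. In knockout over wild type (0.984) it was 1.05 with clusters weighted equally, where cluster 04 has 13 knockout cells, and in heterozygote over wild type (0.968) it was 0.9499 without cluster 02. The odds of an inducible UMI in cuprizone over control diet (0.968) were 1.05 from the mean of per-cell CPM, 0.879 without Psmb8 and Psmb5 and 0.886 for Psmb10 with Psmb7 alone. In the knockout (0.993) they were 0.892 with clusters weighted equally, and in the heterozygote (0.963) 0.886 for Psmb10 with Psmb7 alone. The median log2 ratio of the proteasome genes in cuprizone over control diet (-0.01) was 0.0483 over every deposited cell, 0.0253 without cluster 02, 0.0321 from per-cell CPM, 0.0440 with clusters weighted equally, 0.112 under TMM, 0.110 under median-of-ratios scaling and 0.0438 at the added limit of 1000 UMIs. In the knockout (-0.03) it was 0.0568 with clusters weighted equally, and in the heterozygote (-0.05) -0.0741 over every deposited cell and -0.0746 without cluster 02. The cause of these shifts was not tested. Of 510 further alternatives for role groups and single genes, 456 stayed within the counting interval and 54 moved beyond it, 16 of them under a scaling. A reversed call could be scored only for Psmg4, Psmg1 and Psmd7 in cuprizone over control diet, and 0 occurred. A change of sign in a role group median was not scored as reversed. Without cluster 08 the ratio of Psmb9 between interferon-high and other knockout cells (1.16) was 0.998. The inducible shares of interferon-high cells and the ratios inside clusters 04 and 06 stayed within their intervals under the alternatives added after the data were seen. Depth limits the rare genes most: Psma8 had 107 UMIs in all.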
